A study of Homo sapiens with 6 samples.

Results

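The 8 transcripts described here are those of human mitochondrial DNA that code for subunits of respiratory complexes III, IV and V or form the RNA of the mitochondrial ribosome: MT-CYB, MT-CO1, MT-CO2, MT-CO3, MT-ATP6, MT-ATP8, MT-RNR1 and MT-RNR2. They were chosen by symbol, and all 8 were found among 37 genes with an MT- symbol and 63241 genes in all. RNA came from MDA-MB-231, a triple-negative breast cancer line, in 3 libraries from cells given 40 µM of ArA (arachidonic acid in the study's title) for 24 h and 3 from control cells that received no treatment, labelled NC. Every group is this single cell line, no vehicle is named for the controls, and nothing says whether replicates were separate cultures, so the spread between libraries may be technical. Levels are in TPM, the authors' estimate of a gene's share of all transcripts in a library after correction for transcript length.

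Mitochondrial DNA is a small circle whose strands are transcribed as long precursors. Transfer RNAs lie between most of the longer genes, and cutting them out frees the mRNAs and the ribosomal RNAs, which then receive short poly(A) tails. The 8 transcripts all come from the heavy-strand precursor. MT-CYB codes for cytochrome b, the subunit of complex III that passes electrons from ubiquinol. MT-CO1, MT-CO2 and MT-CO3 code for the catalytic core of complex IV, cytochrome c oxidase, which reduces oxygen. MT-ATP6 and MT-ATP8 code for membrane subunits of complex V, ATP synthase. MT-RNR1 and MT-RNR2 are the RNAs of the small and large mitochondrial ribosomal subunits, which translate these mRNAs.

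All 8 genes lie on the forward strand of chrM in GENCODE v29 on hg38, and their position bears on how far their levels can be told apart. The members for the ATP synthase sit on a shared mRNA, where the end of MT-ATP8 is also the start of MT-ATP6. The 46 shared bases, chrM:8527-8572, are in capitals in the whole MT-ATP8 gene (chrM:8366-8572) and in the first 90 bases of MT-ATP6 (chrM:8527-8616), both read from the GENCODE transcripts.
MT-ATP8: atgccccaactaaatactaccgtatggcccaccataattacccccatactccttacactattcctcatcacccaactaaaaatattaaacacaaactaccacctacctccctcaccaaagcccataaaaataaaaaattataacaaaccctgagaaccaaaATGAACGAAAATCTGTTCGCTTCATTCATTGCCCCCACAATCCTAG
MT-ATP6: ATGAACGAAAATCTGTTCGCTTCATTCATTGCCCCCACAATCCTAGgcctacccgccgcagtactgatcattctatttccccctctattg
MT-ATP6 in turn shares 1 base, at position 9207, with the start of MT-CO3. A read from shared bases can belong to either gene, so the split between neighbours depends on the authors' counting.

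The last 24 bases of the 6 mRNAs are shown because they differ in how the reading frame ends, with the annotated stop letters in capitals.
MT-CYB: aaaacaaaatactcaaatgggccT
MT-CO1: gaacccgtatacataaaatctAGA
MT-CO2: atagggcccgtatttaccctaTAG
MT-CO3: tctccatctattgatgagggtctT
MT-ATP6: ctctacctgcacgacaacacaTAA
MT-ATP8: cattcattgcccccacaatccTAG
MT-CYB and MT-CO3 are each 1 base longer than a whole number of codons and end in a lone T, which polyadenylation is known to complete to a stop codon. MT-CO1 ends in AGA, which is annotated as its stop codon. The genes run from 207 nucleotides (MT-ATP8) to 1559 nucleotides (MT-RNR2), and their GC content from 39.6% (MT-ATP8) to 46.6% (MT-CO3).

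These transcripts were among the most abundant in the libraries. How library preparation treated rRNA was not examined here, so the levels of the rRNAs beside the mRNAs may not be those in the cells. Ranked by mean TPM over the 6 libraries among the 12999 genes that averaged 1 TPM or more, MT-ATP8 was in place 1, MT-CO3 in place 4, MT-CO2 in place 5, MT-CO1 in place 6 and MT-ATP6 in place 7. MT-RNR1 followed in place 11, MT-CYB in place 14 and MT-RNR2 in place 20. Together the 8 made up 18.28, 16.12 and 15.40% of all TPM in ArA replicates 1, 2 and 3, against 19.26, 17.99 and 18.56% in NC replicates 1, 2 and 3. ArA replicate 1 lay within the range of the NC libraries, and ArA replicates 2 and 3 lay below all of them. All MT- symbols took 29.02 ± 2.75% of TPM in ArA libraries and 32.19 ± 0.672% in NC libraries (SD, n = 3 each). The 22 mitochondrial tRNA genes were listed at 0 in every library, so the 8 members and the 7 complex I genes made up the whole MT- sum.

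**Figure D1:**
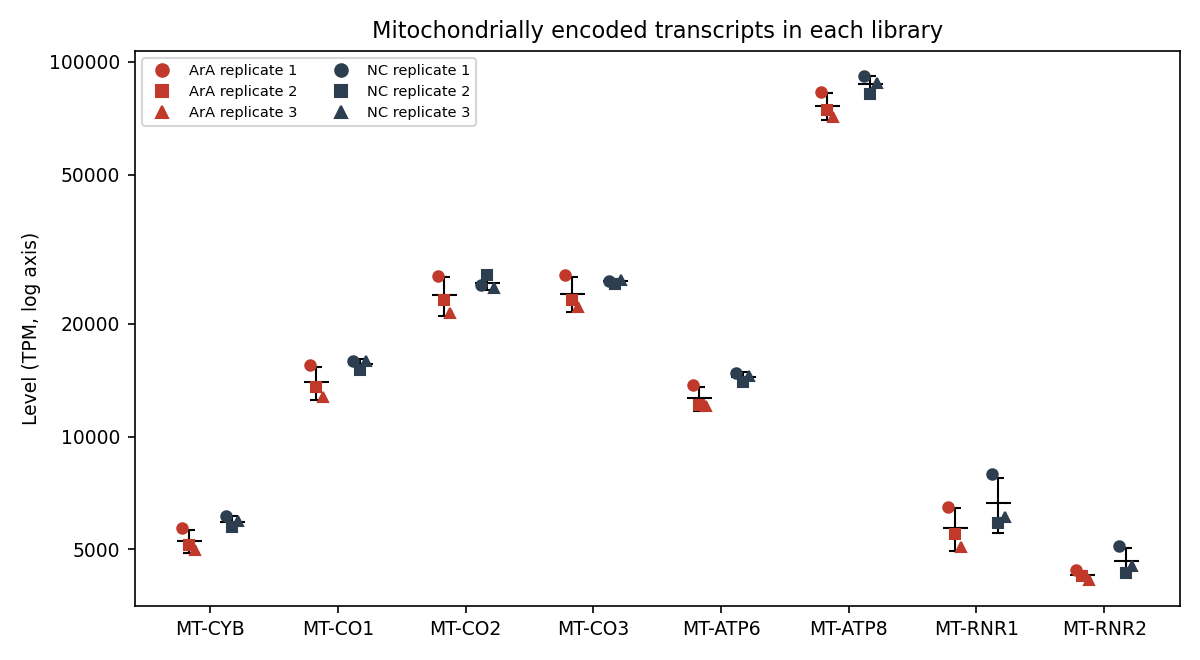
Level of each transcript in TPM (log axis) in every library, with ArA libraries in red on the left and NC libraries in dark blue on the right of each pair; horizontal marks and bars are the mean and SD of 3 libraries. ArA replicate 1 is the highest ArA library for each transcript, and MT-ATP6 and MT-CYB are the pairs in which all ArA points lie below all NC points.

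No transcript of the 8 passed the test for a difference between ArA and NC libraries, although each had a lower mean in ArA libraries. The test was limma on log2(TPM + 1) over all 12999 genes, 2-sided and with Benjamini-Hochberg adjustment, with a threshold of 0.05. In it 0 of the 8 passed, 0 had an unadjusted p under 0.05, and their adjusted p was 0.999. The count at an unadjusted p under 0.05 was 3 of 8 with TPM rescaled without MT- genes (smallest p 0.0330 in limma). In that fit 131 of 12999 genes were lower at that level. It was 2 with robust eBayes and 1 with a pseudocount of 0.1, each in a fit where 66 of 12999 genes were lower. With a mean of 5 TPM or more required it was 1, where 28 of 9142 genes were lower. In the test first described, 0.00769% of all tested genes passed as lower and 0.0154% as higher in ArA libraries (1 and 2 genes). At an unadjusted p under 0.05, 0.508% were lower and 2.28% higher. With median-of-ratios scaling 1 gene passed in each direction. A negative log2 fold change was seen for 8 of 8 members (3 of 8 under quantile normalization, where the other 5 were at 0) and for 31.1% of tested genes, and the members' median was -0.17 against 0.06 for all tested genes. The members come from a common precursor and are read from the same libraries, so they are not 8 independent observations. TPM are shares, and a lower share of mitochondrial transcripts raises all others, which moves the median of all genes. With TPM rescaled without MT- genes that median was -0.0022. The members moved too, and then ran from -0.28 (MT-RNR1) to -0.18 (MT-CO3). Bulk libraries also cannot separate less of a transcript in every cell from fewer cells that hold much of it.

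Cytochrome b was 1 of the 2 members, with MT-ATP6, whose values did not overlap between the groups. Among all tested genes, 1.21% had all ArA values below all NC values. MT-CYB had 5695, 5150 and 4977 TPM in ArA replicates 1, 2 and 3, against 6127, 5731 and 5945 TPM in NC replicates 1, 2 and 3. All ArA values lay below all NC values, but the gap between ArA replicate 1 and NC replicate 2 was narrow. The means were 5274 ± 375 TPM in ArA and 5935 ± 198 TPM in NC libraries (SD, n = 3 each), a ratio of 0.889. On the log2 scale the difference came to -0.17, with an SE of 0.08 and a 95% interval of -0.36 to 0.02. MT-CYB (ENSG00000198727) lies at chrM:14747-15887, the last gene of the heavy-strand precursor that codes for a protein.

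The oxidase subunits overlapped between groups, each through ArA replicate 1. MT-CO1 (ENSG00000198804, chrM:5904-7445), which holds the oxygen-binding site, had 15510, 13573 and 12747 TPM in ArA replicates 1, 2 and 3, against 15914, 15090 and 15867 TPM in NC replicates 1, 2 and 3. MT-CO2 (ENSG00000198712, chrM:7586-8269), which takes electrons from cytochrome c, had 26878, 23180 and 21411 TPM in ArA libraries, against 25310, 26966 and 24890 TPM in NC libraries. MT-CO3 (ENSG00000198938, chrM:9207-9990), the other core subunit, had 26962, 23075 and 22209 TPM in ArA libraries, against 26067, 25603 and 26182 TPM in NC libraries. For MT-CO3 the highest of the 6 values was that of ArA replicate 1, and for MT-CO2 only NC replicate 2 exceeded it. The log2 fold changes were -0.17 (SE 0.09) for MT-CO1, -0.12 (SE 0.10) for MT-CO2 and -0.11 (SE 0.09) for MT-CO3, with 95% intervals of -0.39 to 0.05, -0.36 to 0.12 and -0.33 to 0.11. Without ArA replicate 1 they were -0.25 for MT-CO1, -0.21 for MT-CO2 and -0.20 for MT-CO3, and without ArA replicate 3 they were -0.11, -0.04 and -0.06 in the same order of genes.

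The ATP synthase subunits had lower means in ArA libraries by a similar ratio. MT-ATP6 (ENSG00000198899, chrM:8527-9207), part of the proton channel, had 13748, 12138 and 12094 TPM in ArA replicates 1, 2 and 3, against 14780, 13982 and 14506 TPM in NC replicates 1, 2 and 3. All ArA values lay below all NC values, as they did for 1.21% of tested genes. The unadjusted p of MT-ATP6 in limma, 0.0522, was the smallest among the 8 members. MT-ATP8 (ENSG00000228253), a small subunit of the stator, had 83119, 74348 and 71311 TPM in ArA libraries, against 91402, 82279 and 87545 TPM in NC libraries. Here ArA replicate 1 exceeded NC replicate 2. The log2 fold changes were -0.19 (SE 0.08, 95% interval -0.38 to 0.00) for MT-ATP6 and -0.19 (SE 0.09, 95% interval -0.41 to 0.03) for MT-ATP8, which bound the ratio of ArA to NC between 0.767 and 1.002 for MT-ATP6 and between 0.751 and 1.02 for MT-ATP8.

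The ribosomal RNAs also had lower means in ArA libraries. MT-RNR1 (ENSG00000211459, chrM:648-1601) had 6506, 5508 and 5076 TPM in ArA replicates 1, 2 and 3, against 7930, 5892 and 6111 TPM in NC replicates 1, 2 and 3. MT-RNR2 (ENSG00000210082, chrM:1671-3229) had 4398, 4240 and 4144 TPM in ArA libraries, against 5096, 4333 and 4517 TPM in NC libraries. NC replicate 1 was the highest library for each rRNA, and the groups overlapped. As log2 fold changes, MT-RNR1 gave -0.22 (SE 0.14, 95% interval -0.55 to 0.12), the lowest of the 8 and the one with the widest interval, and MT-RNR2 gave -0.12 (SE 0.08, 95% interval -0.32 to 0.08). Without NC replicate 1 these values were -0.08 for MT-RNR1 and -0.05 for MT-RNR2, and without ArA replicate 3 MT-RNR1 gave -0.14. The sum of the rRNAs over the sum of the 6 mRNAs was 0.0634, 0.0644 and 0.0637 in ArA replicates 1, 2 and 3, against 0.0725, 0.0603 and 0.0608 in NC replicates 1, 2 and 3. The ArA values of this ratio lay close together, inside the range of the NC values.

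**Figure D2:**
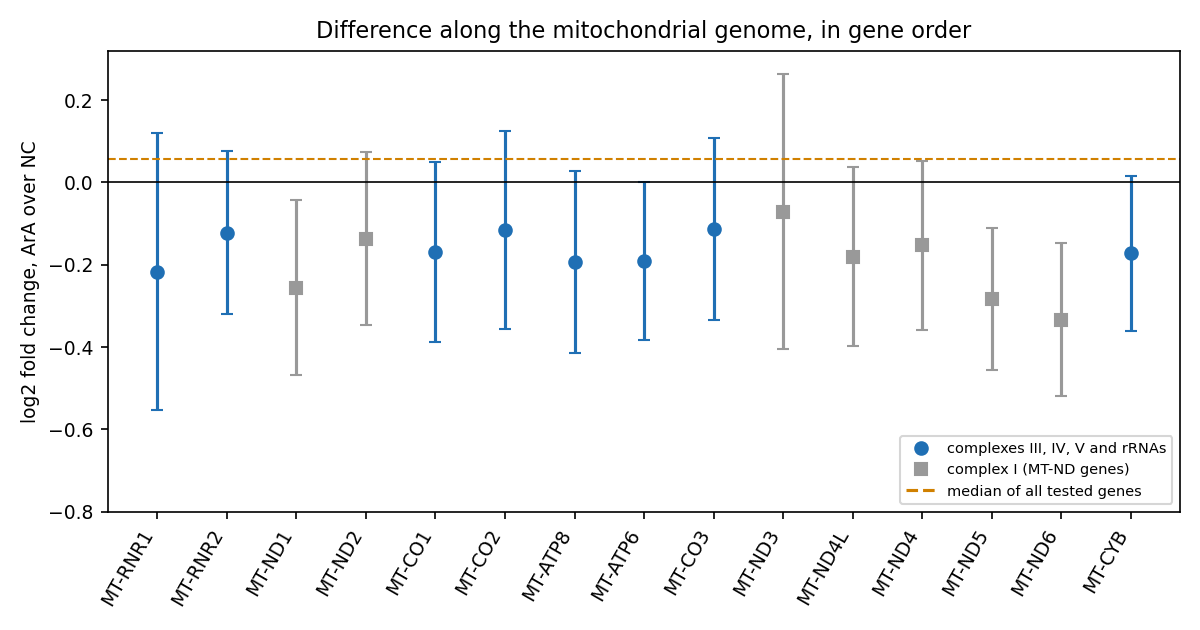
log2 fold change of ArA over NC with its 95% interval from limma for the 15 mitochondrial genes listed above 0, in their order along the genome, with complexes III, IV, V and rRNAs as blue circles and complex I genes as grey squares. All 15 points lie below 0 and below the dashed median of all tested genes (0.06), and the intervals of all 8 members include 0.

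The complex I transcripts spread more widely than the 8 members, whose log2 fold changes ran from -0.22 to -0.11. The 7 MT-ND genes, which code for the mitochondrial subunits of complex I, had log2 fold changes from -0.33 (MT-ND6) to -0.07 (MT-ND3), with a median of -0.18, and 0 passed. At an unadjusted p under 0.05 in limma, 3 of these 7 were lower in ArA libraries, where 0 of the 8 members and 0.508% of tested genes were. They were MT-ND6, MT-ND5 at -0.28 and MT-ND1 at -0.26, and their 95% intervals lay below 0. The smallest p of a member in limma, 0.0522 for MT-ATP6, was just above that level. MT-ND5 and MT-ND6 lie next to each other on opposite strands, and whether counting used strand is not given. Whether these genes differ from the members was not tested. Among the members, MT-RNR1 had the lowest value and MT-CO3 the highest, but without NC replicate 1 the highest were MT-RNR2 at -0.05 and MT-RNR1 at -0.08, with MT-CO3 at -0.11.

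How far the groups lay apart depended on ArA replicate 1. Less its own mean over the 6 libraries on the log2(TPM + 1) scale, the average of the 6 mRNAs stood at 0.07, -0.12 and -0.18 in ArA replicates 1, 2 and 3, against 0.11, 0.05 and 0.08 in NC replicates 1, 2 and 3. All 3 ArA libraries lay below all 3 NC libraries for 2 of the 8 members (MT-ATP6 and MT-CYB), where 1.21% of tested genes did so. Without ArA replicate 1 this held for all 8, where 2.22% of tested genes did so, and 6 of the 8 had an unadjusted p under 0.05 in limma, where 0.469% of tested genes were lower at that level. Their smallest adjusted p in limma was then 0.900, where 0.0308% of tested genes passed as lower. Without NC replicate 2, 5 of the 8 were separated, where 10.2% of tested genes were, and 0 had an unadjusted p under 0.05, where 1.86% were lower at that level and 0.0385% passed. Leaving out both of these libraries separated all 8, where 11.6% of tested genes were separated, and 6 had an unadjusted p under 0.05, where 2.26% were lower at that level. Their smallest adjusted p in limma was 0.478, where 0.0539% of tested genes passed as lower. In the other 4 cases the separated members were again MT-ATP6 and MT-CYB, where 2.95% of tested genes were separated without ArA replicate 2, 3.06% without ArA replicate 3, 3.77% without NC replicate 1 and 1.95% without NC replicate 3. In these cases 0 members had an unadjusted p under 0.05 in limma, where 0.592, 0.523, 0.585 and 0.385% of tested genes were lower at that level.

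**Figure D3:**
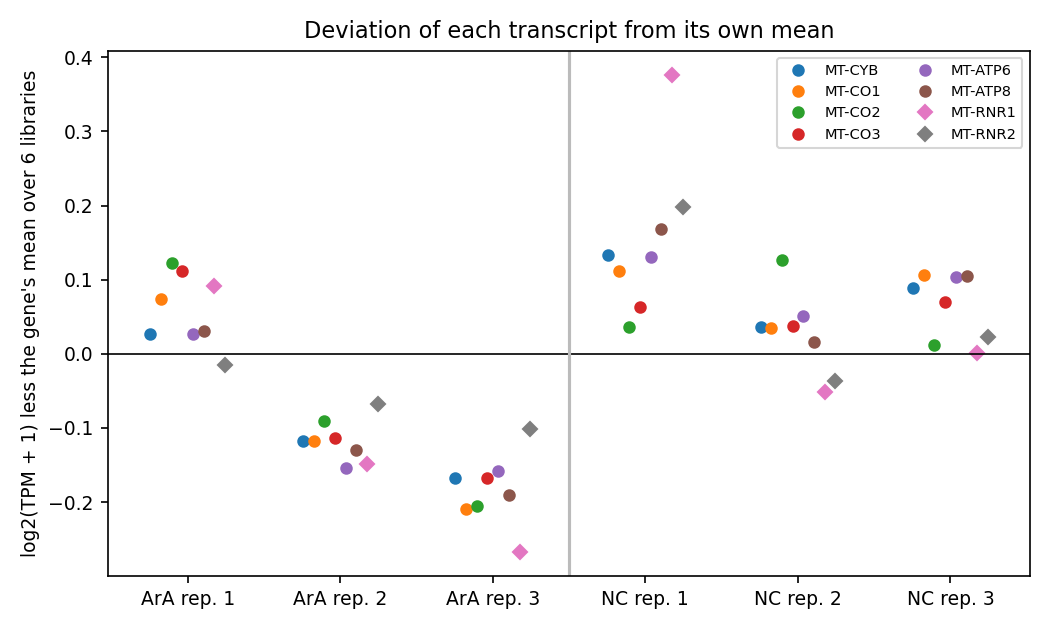
Level of each transcript on the log2(TPM + 1) scale less its own mean over the 6 libraries, with ArA libraries on the left and NC libraries on the right; circles are mRNAs and diamonds are rRNAs, each colour 1 transcript. In ArA replicates 2 and 3 all 8 transcripts lie below 0, in ArA replicate 1 all but MT-RNR2 lie above it, and MT-RNR1 in NC replicate 1 stands highest.

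ArA replicate 1 and NC replicate 2 also differed from the other 4 libraries in the level of genes with low GC content. Over 4758 tested genes with GC content under 45%, the median deviation from the gene's mean was -0.24, 0.10 and 0.19 on the log2 scale in ArA replicates 1, 2 and 3, against 0.17, -0.36 and 0.13 in NC replicates 1, 2 and 3. The average of the 6 mRNA members ran in the reverse order in ArA replicates 1, 2 and 3 (0.07, -0.12 and -0.18). In NC replicates 1, 2 and 3 it ran in the same order as those genes (0.11, 0.05 and 0.08). Among the 6 mRNAs, MT-ATP6 (44.2%) and MT-ATP8 (39.6%) have a GC content under 45%, and the others lie at 46.2 to 46.6%. Whether the shift with GC content bears on the members was not tested. With each library's trend with GC content removed, all 8 log2 fold changes stayed negative, from -0.26 (MT-RNR1) to -0.16 (MT-CO3). The SE of every member rose, for MT-ATP8 from 0.09 to 0.21. With limma's array weights, which gave ArA replicate 2 a weight of 7.59, NC replicate 3 a weight of 2.99 and ArA replicate 1 and NC replicate 2 weights of 0.303 and 0.219, 2 members passed as lower in ArA libraries: MT-ATP6 at adjusted p = 0.0404 and MT-ATP8 at adjusted p = 0.0491. In that fit 0.346% of tested genes passed as lower, and 7 of the 8 members had an unadjusted p under 0.05, where 5.76% of tested genes were lower at that level. In 19 other settings no member passed.

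Within the mitochondrial RNA pool, the make-up of the 8 transcripts was close in ArA and NC libraries. As a share of the summed TPM of all MT- symbols, the 8 together took 57.2 ± 0.358% in ArA and 57.8 ± 1.33% in NC libraries (SD, n = 3 each). MT-ATP8 took 26.3 ± 0.382% in ArA and 27.0 ± 1.14% in NC libraries, the largest share of any member. MT-CO3 took 8.39, 8.25 and 8.25% in ArA replicates 1, 2 and 3, against 7.91, 8.01 and 8.27% in NC replicates 1, 2 and 3. The groups overlapped through NC replicate 3. MT-CO2 took 8.20 ± 0.219% in ArA and 7.99 ± 0.391% in NC libraries, and MT-CO1 took 4.803 ± 0.0614% in ArA and 4.855 ± 0.149% in NC libraries. MT-ATP6 took 4.37 ± 0.110% in ArA and 4.48 ± 0.106% in NC libraries, and the groups overlapped. MT-CYB took 1.82 ± 0.0418% in ArA and 1.84 ± 0.0455% in NC libraries, MT-RNR1 1.96 ± 0.0701% in ArA and 2.06 ± 0.304% in NC libraries, and MT-RNR2 1.47 ± 0.0921% in ArA and 1.44 ± 0.0970% in NC libraries.

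The share of no member could be told apart between the groups. In exact 2-sided permutation tests, 1 for each of the 8 shares, p ran from 0.3 (MT-CO3 and MT-ATP6) to 0.9 (MT-RNR1), and adjusted over the 8 tests from 0.8 to 0.9. With 3 libraries in each group p cannot go below 0.1, so no share could have passed 0.05. The difference of mean shares, ArA minus NC, was -0.74 percentage points for MT-ATP8, -0.11 for MT-ATP6, -0.10 for MT-RNR1, -0.05 for MT-CO1 and -0.02 for MT-CYB. It was 0.23 for MT-CO3, 0.21 for MT-CO2 and 0.03 for MT-RNR2. With 1 library left out, it ran from -1.40 (without NC replicate 2) to -0.39 (without NC replicate 1) for MT-ATP8, and from -0.17 (without ArA replicate 3) to -0.06 (without NC replicate 3) for MT-ATP6. For MT-CO2 it ran from 0.05 (without NC replicate 1) to 0.42 (without NC replicate 2), and for MT-CO3 from 0.15 to 0.33 (without NC replicates 1 and 3 in turn). For the other 4 members its sign turned when 1 library was left out.

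**Figure D4:**
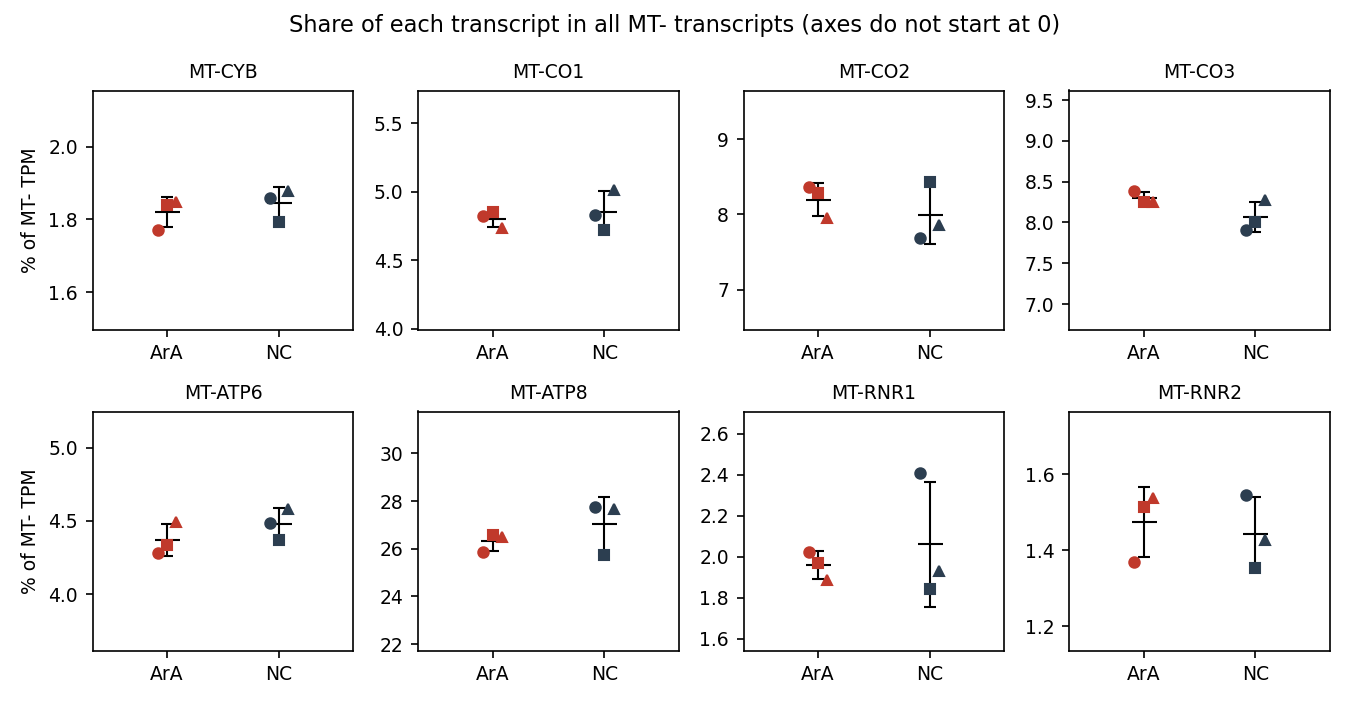
Share of each transcript in the summed TPM of all MT- symbols, in percent, by library (circle, square and triangle for replicates 1, 2 and 3), with ArA libraries in red on the left and NC libraries in dark blue on the right; marks and bars are mean and SD, n = 3 each, and axes do not start at 0. The groups overlap in all 8 panels, and MT-RNR1 in NC replicate 1 (2.41%) stands above the rest of its panel.

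Ratios between members varied little over the libraries for some pairs and more for others. MT-ATP8 over MT-ATP6, which share an mRNA, was 6.05, 6.13 and 5.90 in ArA replicates 1, 2 and 3, against 6.18, 5.89 and 6.04 in NC replicates 1, 2 and 3. The ratio varied little, and the groups overlapped. MT-CYB over MT-CO1 averaged 0.379 ± 0.0116 in ArA and 0.380 ± 0.00517 in NC libraries, and MT-CO3 over MT-CO2 averaged 1.01 ± 0.0223 in ArA and 1.01 ± 0.0540 in NC libraries (SD, n = 3 each). MT-CO3 over MT-CO1 was 1.738, 1.700 and 1.742 in ArA replicates 1, 2 and 3, against 1.638, 1.697 and 1.650 in NC replicates 1, 2 and 3. Of the 9 ratios between members or their sums that were computed, this was the only one in which the groups did not overlap. Looser pairs were MT-RNR1 over MT-RNR2, from 1.225 (ArA replicate 3) to 1.556 (NC replicate 1), and MT-CO2 over MT-CO1. The latter ran from 1.569 (NC replicate 3) to 1.787 (NC replicate 2). No test was made of these ratios.

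The order of the levels ran partly against gene length. The 3 shortest genes of the 15, MT-ATP8 with 207, MT-ND4L with 297 and MT-ND3 with 346 nucleotides, had the 3 highest mean levels per length, at 81668, 31220 and 63984 TPM. MT-ATP8 thus stood at 5.89 to 6.18 times MT-ATP6 although they lie on the same mRNA. Fragments can be longer than such genes, and how the authors' estimate treated effective length is not given in the sources used here, so its part in the level of MT-ATP8 was not tested. TPM were also multiplied by annotated gene length, which need not be the length that the authors' estimate divided by. MT-ATP8 then took 9.50 ± 0.0993% of the MT- sum in ArA and 9.75 ± 0.338% in NC libraries. MT-CO1 became the largest member at 12.9 ± 0.183% in ArA and 13.0 ± 0.268% in NC libraries (SD, n = 3 each). On that scale the 8 members took 59.7 ± 0.292% in ArA and 59.7 ± 0.609% in NC libraries. MT-CO3 took 11.53, 11.25 and 11.26% in ArA replicates 1, 2 and 3, against 10.82, 11.05 and 11.19% in NC replicates 1, 2 and 3. Its groups did not overlap on that scale, those of every other member did, and no test was made. Between neighbours in the order of levels, MT-CO2 and MT-CO3 did not differ beyond their spread, at 24773 and 25016 TPM over the 6 libraries, while MT-CO1 (14784 TPM) exceeded MT-ATP6 (13541 TPM) in every library. MT-RNR1 exceeded MT-CYB in every library too, on average by less than its SD in either group, and MT-CYB exceeded MT-RNR2 in every library.

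**Figure D5:**
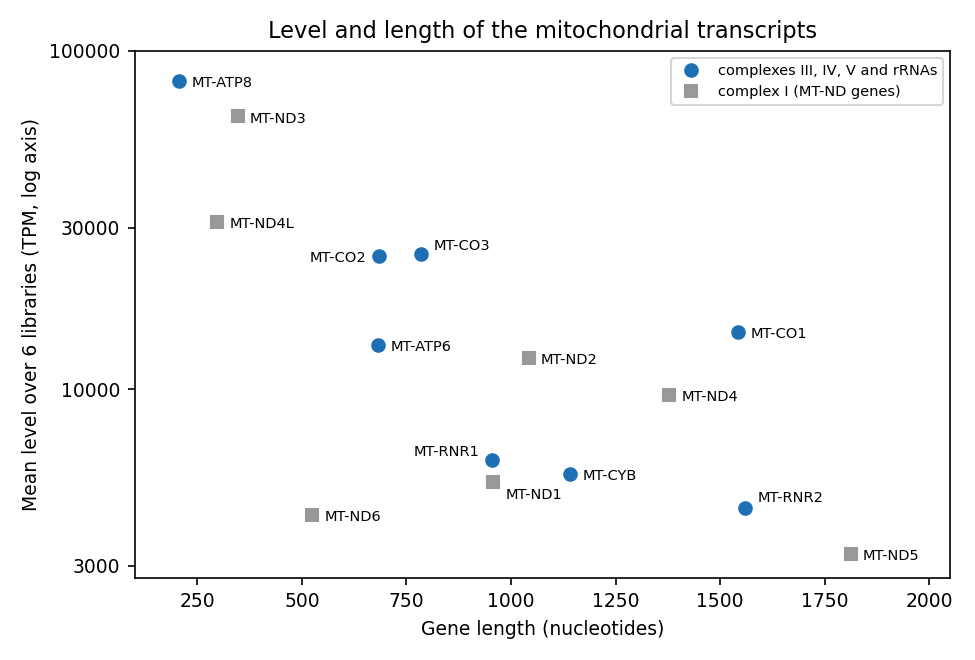
Mean level over the 6 libraries in TPM (log axis) against gene length in nucleotides for the 15 mitochondrial genes listed above 0, with complexes III, IV, V and rRNAs as blue circles and complex I genes as grey squares. The shortest gene, MT-ATP8 with 207 nucleotides, has the highest level at 81668 TPM.

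Copies of mitochondrial genes in the nuclear genome can take reads from the members. Of 187 such pseudogenes in the table, named after a member, 16 were above 0 in at least 1 library, and none of these was a copy of MT-ATP8, MT-RNR1 or MT-RNR2. MTATP6P1, which matches MT-ATP6 over 681 bases with 10 differences (98.5% identity), had 1429, 1190 and 1109 TPM in ArA replicates 1, 2 and 3, against 1543, 1345 and 1555 TPM in NC replicates 1, 2 and 3. That was 9.17 to 10.7% of the level of MT-ATP6 in each library, with the lowest percentage in ArA replicate 3. MTCO1P12, with 98.6% identity to MT-CO1 over 1543 aligned bases, stood at 0.702 to 0.749% of MT-CO1. The other copies stayed below 8 TPM in every library. Adding the copies left the sign of the difference in share as it was for the 5 members that have a copy above 0.

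The members' profiles over the 6 libraries were most like each other, apart from MT-CO2 and the rRNAs. Likeness was the root mean square distance between log2(TPM + 1) profiles after each gene's mean was subtracted. Among all tested genes, MT-CYB and MT-ATP6 were each other's nearest, at a distance of 0.0171. For MT-ATP8 and MT-CO1 the nearest gene was MT-CYB, and for MT-CO3 it was MT-CO1. The nearest genes to MT-CO2, MT-RNR1 and MT-RNR2 were SLC25A35, ILDR2 and GXYLT2, which are nuclear. Outside the mitochondrial genes, those nearest to the average of the 6 mRNAs with a mean of at least 5 TPM were WDR62 (0.0477), the pseudogene MTCO1P12 (0.0478), HDAC10 (0.0491), WDR59 (0.0522) and MCAT (0.0558). With so many genes and 6 libraries, such distances are a description.

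Genes of the nuclear genome that act with these transcripts gave no call in either direction. Of the nuclear subunits, 0 of 9 in complex III, 0 of 11 in complex IV and 0 of 18 in complex V passed over all genes in limma, with 0, 0 and 1 at an unadjusted p under 0.05. Of all tested genes, 0.0154% passed as higher and 0.00769% as lower, so that 0 in a list says little. At an unadjusted p under 0.05 in limma, 2.28% were higher and 0.508% lower. The median log2 fold changes of these subunits were 0.07, 0.08 and 0.04 in the same order, beside 0.06 for all tested genes and -0.17 for the 8 members. COX6A1, an oxidase subunit, had 1802 ± 47.5 TPM in ArA and 1630 ± 112 TPM in NC libraries, and UQCRH, a hinge protein of complex III, 407 ± 84.9 TPM in ArA and 379 ± 50.6 TPM in NC libraries (SD, n = 3 each). ATP5ME, a membrane subunit of ATP synthase, had 324, 348 and 361 TPM in ArA replicates 1, 2 and 3, against 266, 302 and 303 TPM in NC replicates 1, 2 and 3. Its ArA values lay above all its NC values, as they did for 6.84% of tested genes, with a log2 fold change of 0.25 (SE 0.09, limma adjusted p = 0.999). ATPAF2, an assembly factor of ATP synthase, had 10.8, 17.1 and 13.6 TPM in ArA libraries, against 9.34, 8.73 and 9.43 TPM in NC libraries. Its log2 fold change was 0.52 (SE 0.17, limma adjusted p = 0.999), with all ArA values above all NC values. It had the smallest p of 28 assembly and translation factors, of which 0 passed and 1 had an unadjusted p under 0.05. The lowest log2 fold change in this list was that of LYRM7, a complex III assembly factor named after its values were seen, at -0.84 (SE 0.36, limma adjusted p = 0.999). It had 2.40, 3.99 and 3.22 TPM in ArA replicates 1, 2 and 3, against 9.13, 3.15 and 8.67 TPM in NC replicates 1, 2 and 3, so that NC replicate 2 lay among the ArA values.

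Factors that make, process and keep mitochondrial RNA likewise gave no call. For transcription of mitochondrial DNA 0 of 10 genes passed and 0 had an unadjusted p under 0.05 in limma, with a median log2 fold change of 0.02. POLRMT, the mitochondrial RNA polymerase, had 30.8, 39.4 and 29.1 TPM in ArA replicates 1, 2 and 3, against 35.4, 40.3 and 34.1 TPM in NC replicates 1, 2 and 3, and the groups overlapped. For processing, polyadenylation, stability and decay, 0 of 18 genes passed and 1 had an unadjusted p under 0.05, with a median of 0.04. That gene was PRORP, the nuclease that cuts the 5′ ends of mitochondrial tRNAs, with 22.2, 23.8 and 25.5 TPM in ArA libraries, against 18.2, 18.0 and 18.9 TPM in NC libraries. All ArA values lay above all NC values, as they did for 6.84% of tested genes. The log2 fold change of PRORP was 0.36 (SE 0.10, unadjusted p = 0.00794, limma adjusted p = 0.999). SLIRP, which binds mitochondrial mRNAs with LRPPRC, had 193 ± 33.3 TPM in ArA and 183 ± 32.4 TPM in NC libraries (SD, n = 3 each). For maturation of the rRNAs, 0 of 15 genes passed and 0 had an unadjusted p under 0.05, with a median of 0.02. Of all tested genes, 0.0154% passed as higher and 0.00769% as lower in limma. At an unadjusted p under 0.05, 2.28% were higher and 0.508% lower.

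Of 10 genes listed for the state of the named line, VIM, a mesenchymal filament gene, lay between 1335 and 1515 TPM in the 6 libraries, and the hormone receptor genes ESR1 and PGR at no more than 0.03 TPM. The epithelial adhesion gene CDH1 stayed at or under 0.17 TPM, and EPCAM lay at 3.17 to 6.92 TPM. The epithelial keratin genes were nonetheless present, KRT8 at 343 to 439 TPM and KRT18 at 257 to 327 TPM. ERBB2, the receptor gene whose amplification triple-negative tumours lack, lay at 31.99 to 41.82 TPM, EGFR at 57.1 to 79.9 TPM and CD44 at 304 to 376 TPM. Of 4 blood markers, PTPRC, CD3E, HBB and LYZ, none exceeded 0.15 TPM, and of 4 muscle markers MYH1 and MYH7 were listed at 0, ACTA1 at no more than 0.2 TPM and DES at 0.53 to 1.42 TPM. Of 4 fibroblast markers, DCN and COL1A2 stayed at or under 0.13 TPM, while PDGFRB lay at 3.5 to 5.97 TPM and COL1A1 at 5.27 to 6.76 TPM.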

How the data were processed

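RNA-seq of MDA-MB-231 cells was deposited by the authors as a table of TPM with 1 column per library (3 ArA, 3 NC). Per the submitters' processing notes the tools were HISAT2, StringTie and RSEM with hg38, no version being listed. Which annotation was used, and whether counting used strand, is not given in the sources used here. Libraries were made with a TruSeq kit from 1 µg of RNA, per the labels' protocols. TPM keeps no read totals, so depth is unknown and no counting interval is given.

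Of 63241 genes, the 12999 with a mean of at least 1 TPM were fitted with limma 3.58.1 in R 4.3.3 on log2(TPM + 1) (eBayes with trend, group only). The 50 lines without a gene were left out. The fit was tested on simulated data. Shares were compared by exact permutation in scipy 1.17.1, and copies were aligned with Biopython 1.88. Lengths, GC content and sequences came from GENCODE v29, matched by Ensembl identifier. Symbols missing from the table were looked up through current identifiers or RefSeq synonyms, and all listed nuclear genes were found.

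Named were the 8 members, up to 3 genes per nuclear gene list by level or p, the 5 nearest nuclear profiles and the nearest gene to each member. Alternatives were scaling, pseudocount, filter, GC trend, eBayes options, array weights, replicate block, denominators and left-out libraries. The members and lists were chosen with earlier results of these data known.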

Additional observations from a re-analysis of the deposited data

How the results depend on the processing

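Over 20 alternative settings the 8 log2 fold changes gave 155 negative, 5 zero and 0 positive values. The zeros were MT-CO1, MT-CO2, MT-CO3, MT-ATP6 and MT-ATP8 under quantile normalization (0 each), which assigns values by rank. MT-CO1, MT-ATP6 and MT-ATP8 held the same rank in every library. MT-CO2 and MT-CO3 swapped places with each other in 1 library of each group (ArA replicate 2 and NC replicate 2). With array weights MT-ATP6 (-0.25) and MT-ATP8 (-0.24) passed, and no member passed in another setting. Over all genes, array weights called 169 higher and 45 lower in ArA libraries, against 2 and 1 as reported. Higher calls numbered 1 with median-of-ratios scaling, 1 with no filter, 1 without the eBayes trend and 4 with the GC trend removed, and lower calls 0 at a mean of 5 TPM or more. Leaving out 1 library gave 0 to 3 higher and 0 to 5 lower calls, and leaving out ArA replicate 1 and NC replicate 2 together gave 5 and 7. At an unadjusted p under 0.05, 296 genes were higher and 66 lower, against 151 and 131 with TPM rescaled without MT- genes, 150 and 117 with median-of-ratios scaling and 169 and 120 with quantile normalization. The causes were not tested.

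The replicate block in limma gave 0 higher and 0 lower calls, with 173 and 59 at an unadjusted p under 0.05, and with the GC trend removed as well 2 higher and 0 lower. Deviations of same-numbered libraries correlated at -0.16, -0.28 and 0.11, and only ArA replicate 3 correlated best with its own number in the other group. With 3 libraries a group, these correlations cannot settle whether the numbers mark a shared culture or batch. The block lowered the SE of MT-RNR1 from 0.143 to 0.083, while the SEs of the other members moved little.

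Differences in share of the MT- sum, ArA minus NC in percentage points, turned sign in places. With all TPM as the denominator MT-CO2 gave -0.190, MT-CO3 -0.187 and MT-RNR2 -0.0388. Leaving out 1 library gave -0.119 to 0.0280 for MT-CO1 (positive without NC replicate 3), -0.0493 to 0.000414 for MT-CYB (positive without ArA replicate 1), -0.210 to 0.0724 for MT-RNR1 (positive without NC replicate 1) and -0.0131 to 0.0837 for MT-RNR2 (negative, at -0.00139, without ArA replicate 3 and lowest without NC replicate 2). With all TPM as the denominator, the value is a member's level and not its share of the MT- sum. There MT-CO2 gave -0.190, MT-CO3 -0.187 and MT-RNR2 -0.0388, while their mean shares of the MT- sum were higher in ArA libraries. The difference in the summed share of the 8 in all TPM ran from -2.84 to -1.40 points with 1 library left out, an alternative chosen after seeing the data. Depth is unknown, and 3 libraries a group limit the precision.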

Other observations

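The mRNA of the light strand, MT-ND6, codes for a complex I subunit and lies next to MT-CYB on the opposite strand. MT-ND6 over MT-CYB was 0.682, 0.753 and 0.702 in ArA replicates 1, 2 and 3, against 0.779, 0.783 and 0.825 in NC replicates 1, 2 and 3. All ArA values of this ratio lay below all NC values. The ratio was chosen after its values were seen and was not tested, and whether counting used strand is not given in the sources used here.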
